A study of Mus musculus with 7 samples.

Results

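Cr1l and 8 other inhibitors of complement were followed through 7 mouse melanoma tumours. The 9 genes were taken by symbol from the deposited expression table: Cr1l, Cd55, Cd46 and Cd59a on the membrane, the soluble regulators Cfi, Serping1, Clu and Vtn, and Cr2. They are 9 of the 28233 genes in the table, and all 9 were found. Tumours of B16mhgp100 (also spelled B16mghp100 in the labels), a line of the B16 melanoma, had been grown subcutaneously in C57BL/6 mice, and below they are also called by number alone. In the Cr1l group the tumour cells over-expressed Cr1l (4 tumours, Cr1l 1 to Cr1l 4), and in the Vec group they carried the vector (3 tumours, Vec 5 to Vec 7). Both groups were given anti-PD-1, an antibody that blocks a brake on T cells: 4 doses of 200 µg, 2 per week, starting on day 10. Harvest followed 1 day after the fourth dose. The age and sex of the mice, the promoter that drives Cr1l and whether each line was a single clone are not stated. All samples had the antibody.

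Complement is a cascade of plasma proteins that marks surfaces with fragments of C3 and ends in a pore, the membrane attack complex. C3 is cleaved by enzymes called C3 convertases. Host cells keep these in check with membrane proteins: Crry (the product of Cr1l) and CD46 serve as cofactors for the protease factor I (Cfi), which destroys C3b and C4b, and DAF (Cd55) and Crry speed the decay of the convertases. CD59 (Cd59a) blocks the last step of the pore, as clusterin (Clu) and vitronectin (Vtn) do in fluid, and C1 inhibitor (Serping1) stops the proteases of the classical and lectin pathways. Crry exists in rodents, where it is the broadly expressed regulator of the C3 step, while mouse Cd46 is known mainly from the testis. Cr2 encodes the receptors CD21 and CD35 of B cells and follicular dendritic cells, which bind C3 fragments.

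Expression is given as TPM, the share of a transcript among all transcripts, which accounts for transcript length, so that levels may be compared between genes. TPM keeps no read depth, so no counting error can be attached to a single value. Two-sided tests were made with limma on log2(TPM + 1), over the 14954 genes averaging 1 TPM or more, and p-values were adjusted over all of them with a threshold of 0.05. Of the 9 inhibitors 7 were tested; Cfi and Cr2 lay under the minimum. A difference is the mean log2(TPM + 1) of the Cr1l tumours less that of the Vec tumours, a scale that shrinks changes at low levels. In whole tumours, a change in the number of cells of a type and a change in RNA per cell cannot be told apart. Replicates are separate tumours by their labels, which do not say whether each came from its own mouse, so p-values measure the spread between these tumours.

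The tumours differed in make-up within both groups. A list of 10 melanocyte genes, which define the labelled tumour line, was present in every tumour, with sums of 10300 to 22900 TPM for Cr1l and 15000 to 23100 TPM for Vec. The sum was lowest in Cr1l 3 and Cr1l 4, which had the highest sums of 12 macrophage genes (5770 and 4860 TPM, against 511 to 1590 TPM in the other 5 tumours) and of 9 fibroblast genes (6120 and 4880 TPM, against 151 to 1190 TPM). No gene of these 3 lists was at 0 in any tumour. Vec 6 and Vec 7, whose titles carry a further number with no stated meaning, held 4.14% and 0.973% globin transcripts, against at most 0.0417% elsewhere. Mitochondrial transcripts made up 7.5%, 7.6%, 8.54% and 11.7% in tumours 1 to 4 and 4.49%, 7.3% and 3.58% in tumours 5 to 7, so this share was higher in every Cr1l tumour, as Cr1l was.

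The inhibitors spanned a wide range of levels. Ordered by their median over the 7 tumours they were Cr1l (76.37 TPM), Serping1 (66.61 TPM), Cd59a (13.73 TPM), Clu (12.61 TPM), Cd55 (4.12 TPM), Cd46 (1.86 TPM), Vtn (1.46 TPM), Cfi (0.95 TPM) and Cr2 (0.07 TPM). Several neighbours in this order could not be separated. Cr1l lay above Serping1 in 3 of 7 tumours, Cd59a above Clu in 3, Clu above Cd55 in 4 and Cd46 above Vtn in 4. By contrast Serping1 lay above Cd59a, and Cfi above Cr2, in all 7, while Cd55 lay above Cd46 and Vtn above Cfi in 6.

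None of the 7 tested inhibitors passed the threshold by limma, where 2 of all 14954 tested genes did (0.0134%). At an unadjusted p under 0.05 stood 2 of them, Cr1l and Cd55, against 15.6% of all tested genes. The same 2 genes were the ones with an adjusted p under 0.05 in the authors' deposited table, made with DESeq2, among the 8 inhibitors that have an adjusted p there, against 7.02% of all genes with one. The median difference over the 7 tested inhibitors was 0.61, with 5 positive and 2 negative, beside a median of 0.05 over all tested genes, 55.4% of which were positive. Cr1l, over-expressed by design, is among the positive ones, so this median and these counts do not describe the other inhibitors alone. The groups failed to overlap for Cr1l alone among the 9, with every Cr1l tumour above every Vec tumour, a pattern seen in that direction for 9.29% of tested genes. The number called over all genes was sensitive to the setting, ranging from 0 to 6 higher and 0 to 8 lower, whereas no inhibitor was called in any of the 17 alternatives.

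**Figure D1:**
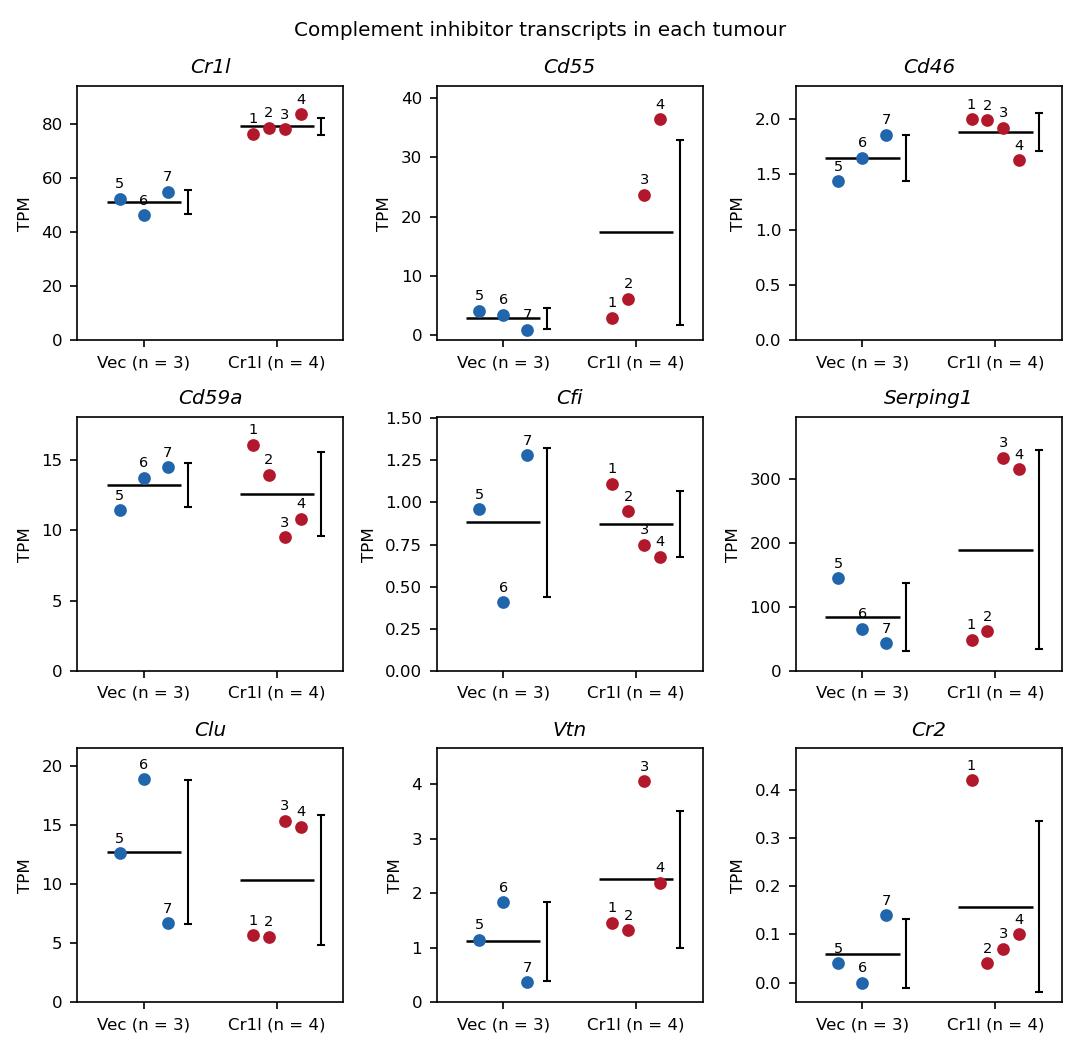
Level of each inhibitor in TPM (vertical axes, each including 0) in the Vec tumours (blue, n = 3) and Cr1l tumours (red, n = 4), with tumour numbers beside the points, group means as lines and SD as bars. Cr1l is the gene whose groups stand apart, Cd55 and Serping1 are highest in tumours 3 and 4, and Cd46 and Cd59a vary little.

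Cr1l was higher in the tumours made to over-express it, by a moderate factor over a substantial level in the vector tumours. Its level was 76.37, 78.56, 77.91 and 83.57 TPM in tumours 1 to 4 and 52.41, 46.29 and 54.94 TPM in tumours 5 to 7. On average Cr1l tumours had 79.1 ± 3.12 TPM (SD, n = 4) against 51.2 ± 4.45 TPM (SD, n = 3) in Vec tumours, a ratio of 1.54 and a gap of 27.9 TPM. The lowest Cr1l tumour was 21.4 TPM above the highest Vec tumour, more than the spread inside either group. The difference was 0.62 (SE 0.12, 95% interval 0.35 to 0.89), with an unadjusted p of 6.95e-04 and an adjusted p of 0.119 by limma, and 4 of 4 Cr1l tumours lay above all Vec tumours. With 35 possible splits the two-sided exact permutation test reached its lowest attainable p, 0.0286. For comparison, Cr1l has an adjusted p of 0.00636 in the authors' deposited table, at 0.571 (SE 0.15) on the log2 scale. Among all genes of a tumour, ranked from the highest TPM down, Cr1l stood between rank 1771 and rank 2120 where it was added and between rank 2935 and rank 3267 elsewhere.

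The level of Cr1l did not follow the melanocyte transcripts within the Cr1l group. Cr1l 3 and Cr1l 4 had 10300 and 11800 TPM of the melanocyte list, the lowest of all tumours, and their Cr1l levels were close to those in Cr1l 1 and Cr1l 2. Set against the melanocyte sum, Cr1l amounted to 3.33, 3.70, 7.55 and 7.06 TPM per 1000 TPM in tumours 1 to 4 and to 2.41, 3.09 and 2.38 TPM in tumours 5 to 7. The groups did not overlap on this ratio either, and its spread inside the Cr1l group was far wider than that of Cr1l itself. Which cells supplied the Cr1l transcripts was not tested. The difference of Cr1l was 0.59 without Cr1l 3 and Cr1l 4, and 0.58 without Vec 6 and Vec 7. With mitochondrial and globin transcripts taken out of the total it was 0.65.

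Cr1l lies next to Cd46 on chromosome 1 in the RefSeq annotation of an older build (GRCm38), where the annotated genes overlap on the same strand. Reads in the shared stretch could therefore count for either gene. The sequences before the annotated starts of Cr1l and Cd55 are shown because these are the inhibitors called in the authors' deposited table, the former nearly even inside each group and the latter the widest-ranging. RNA levels do not measure promoter activity, and the added Cr1l need not be driven from this sequence. Each is the 250 bases upstream of the start (RefSeq, GRCm38.p6, 5′ to 3′ on the gene's strand), with matches to searched motifs in capitals. The Cr1l window is at chr1:195131571-195131820 and the Cd55 window at chr1:130462745-130462994.
Cr1l: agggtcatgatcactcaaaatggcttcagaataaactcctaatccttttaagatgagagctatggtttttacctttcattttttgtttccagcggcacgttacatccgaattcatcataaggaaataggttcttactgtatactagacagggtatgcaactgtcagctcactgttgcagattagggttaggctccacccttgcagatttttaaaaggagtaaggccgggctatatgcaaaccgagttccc
Cd55: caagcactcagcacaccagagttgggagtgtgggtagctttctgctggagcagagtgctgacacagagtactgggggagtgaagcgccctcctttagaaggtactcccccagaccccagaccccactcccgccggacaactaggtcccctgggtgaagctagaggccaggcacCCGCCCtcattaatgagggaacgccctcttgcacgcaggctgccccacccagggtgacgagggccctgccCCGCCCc
Both strands were searched for the letters GGGCGG of the GC box, CCAAT of the CCAAT box, TATAAA of the TATA box, TGANTCA of the AP-1 site, CACGTG of the E-box, TTCNNNGAA of the GAS element and GAAANNGAA of the ISRE core. The motifs do not overlap in either window. The capitals in the Cd55 window are GC boxes on the reverse strand, whose first bases lie 77 and 7 bases before the start. A GC box is held by 32.7% of the 32851 windows of this length in the table. No searched motif is in the Cr1l window, which says only that these letters are not there. The G and C content was 41.6% for Cr1l and 64.0% for Cd55. Promoter windows were found for 6 of the 9 inhibitors.

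Cd55, which encodes the decay-accelerating factor, had the largest ratio between tumours of the inhibitors that were above 0 in all of them. Its level was 2.97, 6.18, 23.72 and 36.44 TPM in tumours 1 to 4 and 4.12, 3.44 and 0.89 TPM in tumours 5 to 7, so the highest was 40.9 times the lowest. Only Cr1l 3 and Cr1l 4 stood well apart: Cr1l 2 was slightly above the highest Vec tumour and Cr1l 1 was below 2 of the Vec tumours. The means of 17.3 ± 15.7 TPM (SD, n = 4) and 2.82 ± 1.70 TPM (SD, n = 3) gave a difference of 1.86 (SE 0.79, 95% interval 0.03 to 3.69) with an adjusted p of 0.316 by limma and an exact permutation p of 0.20. In the authors' deposited table Cd55 had a log2 fold change of 2.59 (SE 0.797) and an adjusted p of 0.0248. The difference was 0.61 without Cr1l 3 and Cr1l 4. These are the tumours with the highest macrophage and fibroblast sums given above, and the part of such cells in the Cd55 level was not tested. The gene overlaps Cd55os on the other strand in RefSeq. Reads from a stretch that both share cannot be told apart because the libraries did not keep strand. Whether the mature transcripts share sequence was not examined.

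Cd46 and Cd59a had the narrowest ranges of the 9, with the highest tumour at 1.39 and 1.69 times the lowest (1.81 for Cr1l). Cd46 stood at 2.00, 1.99, 1.92 and 1.63 TPM in tumours 1 to 4 and at 1.44, 1.65 and 1.86 TPM in tumours 5 to 7. Its groups overlapped, and the difference was 0.12 (95% interval -0.41 to 0.66, adjusted p = 0.805 by limma). Cd59a, the inhibitor of the terminal pore, stood at 16.08, 13.95, 9.54 and 10.82 TPM in tumours 1 to 4 and at 11.45, 13.73 and 14.49 TPM in tumours 5 to 7. The lowest values were in Cr1l 3 and Cr1l 4 and the highest in Cr1l 1, so the range inside the Cr1l group covered the whole Vec group. The Cd59a difference was -0.08 (95% interval -0.57 to 0.40, adjusted p = 0.857 by limma), and its sign turned without Cr1l 3 (0.03), without Cr1l 3 and Cr1l 4 (0.17) and without Vec 6 and Vec 7 (0.10). The intervals do not show that either gene was equal in the groups. Cd59a has a near copy, Cd59b, at 0.19 to 3.8 TPM, and reads of the pair may be split in the authors' quantification.

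Cr1l made up most of the membrane-bound inhibitor transcripts in every tumour. The summed level of Cr1l, Cd59a, Cd55 and Cd46 was 97.42, 100.68, 113.09 and 132.46 TPM in tumours 1 to 4 and 69.42, 65.11 and 72.18 TPM in tumours 5 to 7. The share of Cr1l in that sum was 78.4%, 78.0%, 68.9% and 63.1% in tumours 1 to 4, and 75.5%, 71.1% and 76.1% in tumours 5 to 7. The sum was higher in every Cr1l tumour, but it includes Cr1l, over-expressed by design, and so does not describe the other inhibitors alone. The share of Cr1l overlapped between groups, since Cd55 supplied 21.0% and 27.5% of the sum in Cr1l 3 and Cr1l 4 against 1.23% to 6.14% elsewhere. No test was made on these sums.

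**Figure D2:**
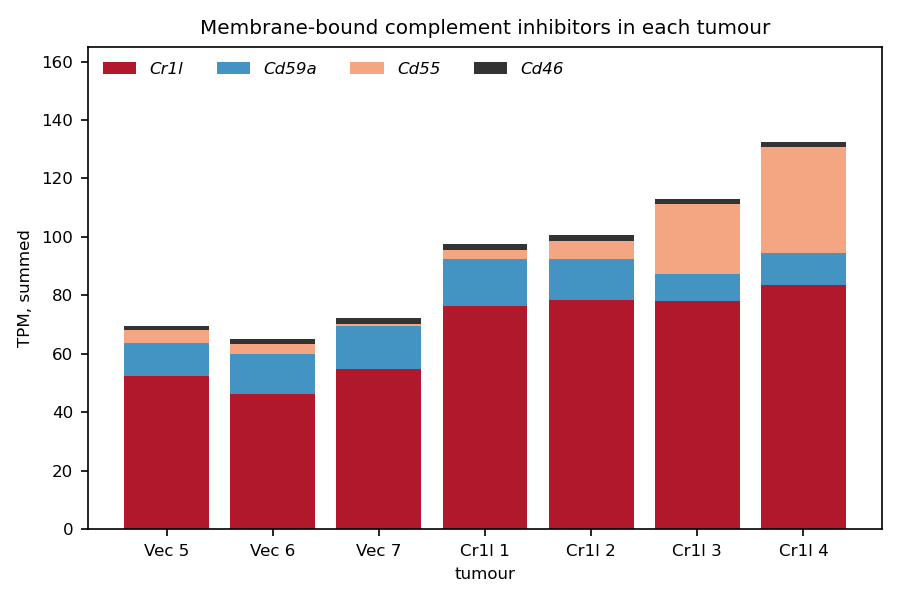
Summed TPM of the membrane-bound inhibitors, including the over-expressed Cr1l (vertical axis), in each tumour (horizontal axis), stacked by gene. The Vec tumours reach 65.11 to 72.18 TPM and the Cr1l tumours 97.42 to 132.46 TPM, with the Cd55 segment wide in Cr1l 3 and Cr1l 4.

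Serping1, which encodes C1 inhibitor, was the most abundant soluble regulator in every tumour and in 4 of the 7 exceeded Cr1l. Its level was 49.28, 62.47, 332.49 and 314.24 TPM in tumours 1 to 4 and 144.70, 66.61 and 44.17 TPM in tumours 5 to 7. Cr1l 3 and Cr1l 4 were the highest, followed by Vec 5, and Cr1l 1 and Cr1l 2 lay among the low Vec tumours. It averaged 190.0 ± 155 TPM (SD, n = 4) against 85.2 ± 52.8 TPM (SD, n = 3), a difference of 0.83 (SE 0.77, adjusted p = 0.604 by limma). The sign turned without Cr1l 3 and Cr1l 4 (-0.43) and without Vec 6 and Vec 7 (-0.11). The difference ran from 0.39 without Cr1l 3 to 1.30 without Cr1l 1. Against its target proteases, the summed level of C1ra and C1s1, Serping1 stood at ratios of 0.781, 0.917, 1.31 and 1.26 in tumours 1 to 4 and 1.18, 1.08 and 0.677 in tumours 5 to 7, a narrower range than that of Serping1 itself, with overlapping groups.

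Clu, which encodes clusterin, stood at 5.69, 5.58, 15.37 and 14.88 TPM in tumours 1 to 4 and at 12.61, 18.88 and 6.69 TPM in tumours 5 to 7. Each group thus held low and high tumours, with the highest value in Vec 6. Vec 6 was also the tumour with the highest sums of 6 red cell genes (41300 TPM) and 6 keratinocyte genes (848 TPM, against 0.41 to 48.3 TPM in the others). It had the highest sum of 5 skeletal muscle genes as well (1510 TPM, against 4.69 to 309 TPM in the others). The part of these genes in the Clu level was not tested. The Clu difference was -0.30 (95% interval -1.37 to 0.76, adjusted p = 0.76 by limma). It was 0.02 without Vec 6 and -0.94 without Cr1l 3 and Cr1l 4.

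Vtn, the gene of vitronectin, a plasma protein made mostly by the liver, was close to the minimum for testing. It stood at 1.46, 1.32, 4.05 and 2.19 TPM in tumours 1 to 4 and at 1.15, 1.83 and 0.37 TPM in tumours 5 to 7. Cr1l 3 and Cr1l 4 were again the highest, and Vec 6 lay above Cr1l 1 and Cr1l 2. The difference was 0.61 (95% interval -0.29 to 1.51, adjusted p = 0.455 by limma), with 0.24 without Cr1l 3 and Cr1l 4, 0.33 without Vec 7 and 1.04 with a pseudocount of 0.1.

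Cfi and Cr2 were the least abundant inhibitors. Cfi, the protease for which Crry and CD46 are cofactors, stood at 1.11, 0.95, 0.75 and 0.68 TPM in tumours 1 to 4 and at 0.96, 0.41 and 1.28 TPM in tumours 5 to 7, with full overlap of the groups. With no filter on low values its difference was 0.01 (95% interval -0.51 to 0.53, adjusted p = 0.978 by limma). Factor I is a plasma protein made mainly in the liver, so transcripts in a tumour do not measure the protein there. Cr2 stood at 0.42, 0.04, 0.07 and 0.10 TPM in tumours 1 to 4 and at 0.04, 0 and 0.14 TPM in tumours 5 to 7, and its adjusted p was 0.684 by limma with no filter. The highest value was in Cr1l 1, and at such levels a few reads decide the order. Cfi overlaps Gm36180, and Cr2 overlaps Gm32313, in RefSeq, so that here too reads may be shared.

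The B cell genes and Cr2 are given side by side, since at the levels of Cr2 no order among tumours can be read. A list of 8 B cell genes summed to 5.88, 4.78, 20.7 and 13.7 TPM in tumours 1 to 4 and to 3.45, 1.87 and 3.15 TPM in tumours 5 to 7. Of that list Ms4a1 stood at 0.57, 0.06, 0.79 and 0.31 TPM in tumours 1 to 4 and at 0 in the 3 Vec tumours. Blk was at 0 in Vec 7 alone. At such levels, too, a few reads decide the order. The authors' repertoire table gave 484, 147, 1567 and 470 immunoglobulin heavy chain clones for tumours 1 to 4 and 22, 0 and 6 for tumours 5 to 7. The B cell sum and the number of clones were both highest in Cr1l 3. Of 5 genes listed for follicular dendritic cells 4 were measured, with sums of 125 to 154 TPM for Cr1l and 92.0 to 128 TPM for Vec, most of it Mfge8 (90.72 to 127.54 TPM), which other cells make too. Cxcl13, a chemokine gene of B cell follicles, stood at 3.0, 5.31, 14.73 and 33.08 TPM in tumours 1 to 4 and at 5.32, 0.98 and 5.2 TPM in tumours 5 to 7. Madcam1 of that list stood at 0.1, 0.13, 0.43 and 0.12 TPM in tumours 1 to 4 and at 0 in the 3 Vec tumours. Fcer2a, also of that list, ranged from 0.04 to 1.23 TPM in Cr1l tumours and from 0.04 to 0.25 TPM in Vec tumours. Both genes lie at levels where a few reads decide the order.

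**Figure D3:**
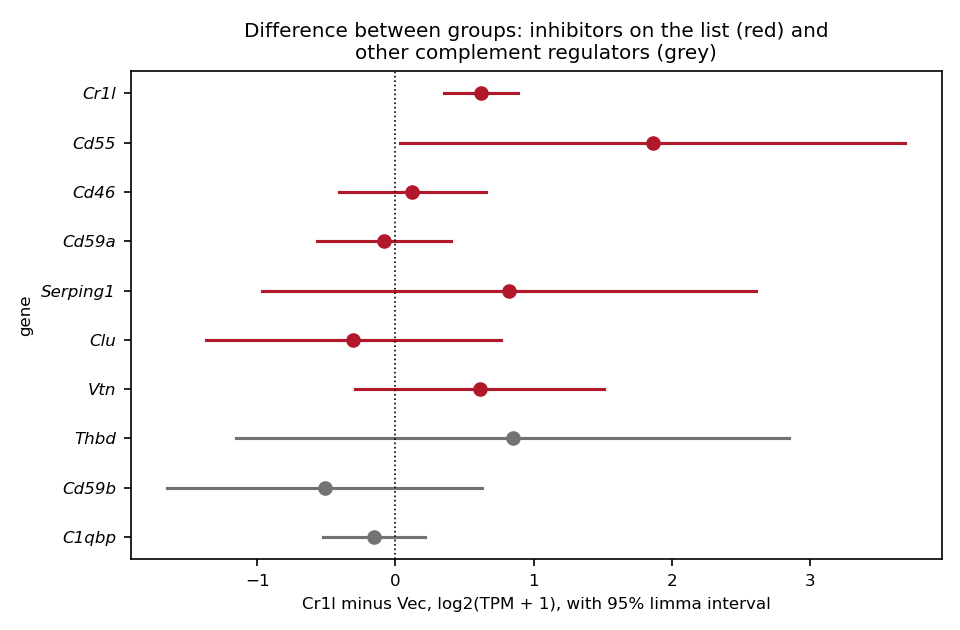
Difference between Cr1l and Vec tumours in log2(TPM + 1) (horizontal axis) with its 95% interval from limma, for the tested inhibitors (red) and other tested complement regulators (grey). The intervals of Cr1l (0.35 to 0.89) and Cd55 (0.03 to 3.69) lie above 0 before adjustment; the others cross it.

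Other regulators of complement were taken from a list of 13, of which 11 were measured and 3 tested. None passed by limma in either direction, 0 had an unadjusted p under 0.05, and the authors' deposited table called 0 of these 3. Thbd, the thrombomodulin gene, had 8.81 ± 6.68 TPM (SD, n = 4) against 5.89 ± 7.53 TPM (SD, n = 3). C1qbp, a mitochondrial protein that also binds C1q, was the most abundant of the list, at 154 ± 20.2 TPM (SD, n = 4) against 172 ± 27.2 TPM (SD, n = 3). The difference of Cd59b was -0.51 and its adjusted p 0.615 by limma. The remaining 8 measured genes, Vsig4, Cpn1, Cpn2, Cpb2, C4bp, Csmd1, Csmd2 and Susd4, had a mean under 1 TPM; the highest single value was 3.00 TPM, for Vsig4 in Cr1l 3. Cpn1, which encodes the catalytic subunit of carboxypeptidase N, an enzyme that trims the anaphylatoxins, was lower in every Cr1l tumour (0.12 to 0.54 TPM) than in every Vec tumour (0.72 to 2.4 TPM). It had the lowest p the exact permutation test can give, 0.0286, unadjusted and 1 of many genes so compared, and an adjusted p of 0.0884 in the authors' deposited table. Among the 14954 tested genes, which do not include Cpn1, 997 were lower in every Cr1l tumour than in every Vec tumour.

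The genes on which the inhibitors act were mostly highest in Cr1l 3 and Cr1l 4 as well. C3 stood at 39.81, 71.13, 574.11 and 481.51 TPM in tumours 1 to 4 and at 107.38, 17.92 and 15.22 TPM in tumours 5 to 7, a difference of 2.39 (adjusted p = 0.334 by limma). Cr1l is a regulator of C3 cleavage, and its level relative to C3 was 1.92, 1.1, 0.136 and 0.174 in tumours 1 to 4 and 0.488, 2.58 and 3.61 in tumours 5 to 7. The ratio was lowest in Cr1l 3 and Cr1l 4 and highest in Vec 6 and Vec 7, although Cr1l itself was higher in the Cr1l tumours. Of the alternative pathway genes, Cfp (properdin, which stabilises the convertase) had a difference of 1.74, Cfb 0.70 and Cfd -1.35. Counting C3, 3 of the 4 were positive, with a median of 1.22.

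Among 11 tested genes of the classical and lectin pathways 10 were positive and 0 passed by limma, with a median of 0.60. C2 was the negative one: its level was 137 ± 30.3 TPM (SD, n = 4) against 222 ± 32.2 TPM (SD, n = 3), a difference of -0.70 with groups that did not overlap and an adjusted p of 0.223 by limma (0.0183 in the authors' deposited table). Groups failed to overlap in that direction for 997 of the 14954 tested genes. C2 supplies the protease of the classical and lectin C3 convertase, the enzyme that Crry and DAF take apart. Fcna, Colec12 and C1s1 had differences of 2.31, 1.21 and 0.98. Of the terminal genes C6 (2.07) and C8g (0.24) were tested, and Hc, C7, C8a, C8b and C9 lay under the filter, at no more than 0.93 TPM in any tumour. The receptors for complement fragments on leukocytes had 5 of 5 tested genes positive and 0 called by limma, with 2.67 for C3ar1, 2.42 for C5ar1, 1.52 for Itgam and 1.25 for Itgb2. All these lists are to be read beside the macrophage sums above, and the part of macrophages in them was not tested.

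**Figure D4:**
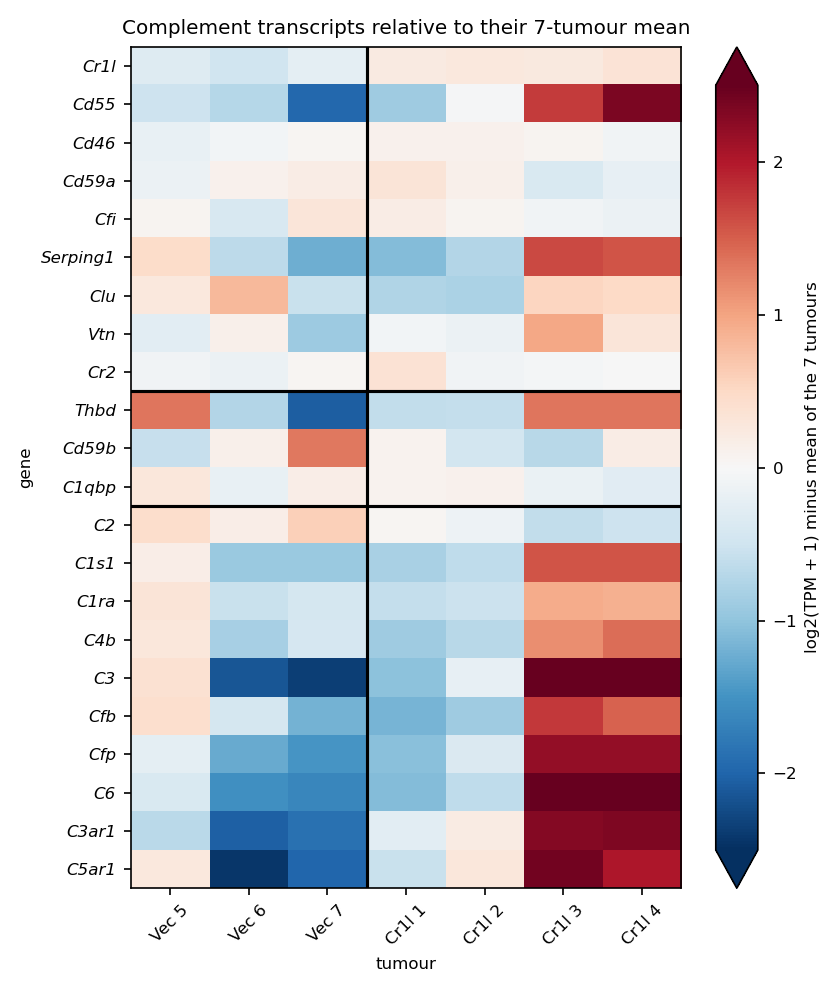
Level of each complement gene (rows) in each tumour (columns) as log2(TPM + 1) minus the mean of the 7 tumours, blue below and red above; colours stop at the ends of the scale. From the top are the 9 inhibitors, other tested regulators, and components and receptors; Cr1l separates the groups at small amplitude, and Cd55, Serping1 and C3 are red in Cr1l 3 and Cr1l 4.

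The genes whose profile was nearest to each inhibitor over the 7 tumours were found among 10553 genes averaging 5 TPM or more, by the largest gap in any tumour between the log2(TPM + 1) values, each centred on its own mean. Symbols that start with Gm or end in Rik had been left out of these genes. For Cr1l they were Slc26a11 (largest gap 0.09), Haus8 (0.10) and Tmem126b (0.11). Cd55 was followed at gaps of 0.37 each by Arhgef3, Abi3bp and Prrx1, within a range of its own of 4.31. Serping1 had as its nearest gene Fcgr1 (0.13), a macrophage Fc receptor gene of the macrophage list, then the complement gene Cfb (0.21) and Mpeg1 (0.23). Cd59a was followed by Tacc3 (0.08), Troap (0.08) and Sox4 (0.11), and Clu by Txnip (0.32), Junb (0.33) and Btg1 (0.36). These are descriptions over 7 tumours, and with so many genes to choose from close profiles are to be found for most shapes.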

How the data were processed

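Bulk RNA of 7 tumours was analysed. The authors deposited log2 values, log2(TPM + 1) per gene symbol from RSEM with the mm39 build, per the submitters' processing notes; no version, aligner or annotation is named there. With the logarithm undone, 28196 genes have 2 decimals and the other 37 do not, and each tumour sums to 993520 to 996031 TPM; depth is unknown. The libraries were poly-A selected and unstranded, per the labels' protocols. The authors' deposited DESeq2 table holds, per the file headers, a log2 fold change, its error, a p-value, an adjusted p-value and a mean normalized signal; its numerator, not named there, was read as Cr1l from the sign of Cr1l, which cannot itself test that sign. Its 28369 identifiers were matched to symbols (27182 matched). The deposited repertoire table holds a score of mixed kinds per tumour, not scaled to depth.

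Groups came from the labels. limma 3.58.1 (R 4.3.3, trend, group as the 1 term) was fitted to genes averaging 1 TPM or more, adjusted by Benjamini-Hochberg and tested on simulated data. Alternatives were the pseudocount, filters, variance models, weights, scalings and tumours left out. The members and lists were chosen with earlier results of these data known. Named were the 9 inhibitors, the measured genes of a list of other regulators (without 4 further genes first placed on it, which are not reported here), C3, up to 4 genes per component list by smallest p, and the 3 nearest profiles per inhibitor of at least 5 TPM; C1ra, Mfge8, Cxcl13, Madcam1, Ms4a1, Blk, Hc, C7, C8a, C8b and C9 were added after their values were seen. Figures were drawn with matplotlib 3.10.9.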

Additional observations from a re-analysis of the deposited data

Results flagged for a closer look

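Among the Cr1l tumours the level of Cr2 in Cr1l 1, 0.42 TPM, lay far from the other 3 (0.04, 0.07 and 0.10 TPM): its gap to the nearest was 0.842 of the range of the group, above the critical value for 4 samples. For normally distributed values chance alone sets off this rule in about 1 group in 20, and 9 genes were looked at. TPM values this near 0 are not known to be so distributed, so the rate for Cr2 is unknown.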

How the results depend on the processing

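The difference of Cr1l kept its sign and stayed short of the threshold in all 17 alternatives, from 0.55 to 0.67 with an adjusted p of 0.0958 to 0.717 by limma, and no inhibitor was called in any of them. Differences of Cd55 (0.61 to 2.42), Cd46 (0.07 to 0.24) and Vtn (0.24 to 1.04) also kept their sign. The sign turned for Cd59a without Cr1l 3 (0.03), without Vec 6 and Vec 7 (0.10) and without Cr1l 3 and Cr1l 4 (0.17), for Serping1 without Vec 6 and Vec 7 (-0.11) and without Cr1l 3 and Cr1l 4 (-0.43), and for Clu without Vec 6 (0.02); the cause was not tested. Over all genes, 0 were called higher and 2 lower. Those numbers were 4 and 2 with a pseudocount of 0.1, 6 and 7 with no variance trend, 6 and 8 with arrayWeights, 4 and 6 with median-of-ratios scaling, 2 and 2 without mitochondrial and globin transcripts, 0 and 0 with no filter, 0 and 1 with a mean of at least 5 TPM, 1 and 2 without Vec 6 and Vec 7, and 3 and 6 without Cr1l 3 and Cr1l 4. Leaving out 1 tumour gave 0 to 2 higher and 0 to 6 lower, and differences of -0.20 to 0.03 for Cd59a, 0.39 to 1.30 for Serping1 and -0.67 to 0.02 for Clu. Fits that keep 1 Vec tumour assume that it varies like the Cr1l tumours. Cd46 and Vtn lie under a mean of 5 TPM and have no value with that filter. No paired analysis was possible because the tumours are numbered 1 to 7 and share no number across the groups. The unknown depth leaves the counting error of Cr2, Cfi, Vtn and Cd46 unmeasured.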
